A study of Bos taurus with 8 samples.

Results

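The genes described here make up the type I interferon response as far as it was chosen by name. They are the receptor chains IFNAR1 and IFNAR2, the signalling factors STAT2 and IRF7, and the interferon-stimulated genes ISG15, MX1, MX2, IFIT2 and EIF2AK2. Every array probe whose platform annotation gave one of these 9 symbols was taken, which came to 12 of 43794 gene probes. The annotation placed 3 probes on IFNAR1, 2 on ISG15 and 1 on each of the other genes. Of the 12 probes, 11 were bright enough to be tested, out of 36995 tested probes in all.

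Bovine blastocysts grown with buthionine sulfoximine (BSO), an inhibitor of glutathione synthesis, were set against blastocysts grown without it. Oocytes came from slaughterhouse ovaries, and maturation, fertilization and culture were all done in vitro. The BSO embryos had 0.4 mM BSO from day 3 to day 5 and 0.01 mM from day 5 to day 7 of a stepwise oviductal fluid culture, while the control embryos, labelled Control-Oxid, had no added agent in the same medium. Whole blastocysts of both groups were collected at 196 h after fertilization and pooled by 10, and 4 pools of each group were compared on 8 dual-colour arrays, with the dyes exchanged on 4 of them. Each value below is the mean of 2 arrays of opposite dye orientation, which gave 4 replicates. Slides with 1 dye orientation each carried the arrays of replicates 1 and 2, and slide 25, with both orientations, carried those of replicates 3 and 4. Nothing in the labels makes the pools independent cultures or animals, and the spread behind every p-value is that of these pools, which may be technical. A pool mixes trophectoderm with inner cell mass, so fewer cells of a type and less RNA per cell cannot be told apart.

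Type I interferons are secreted proteins that bind a cell surface receptor built of IFNAR1 and IFNAR2. The kinases TYK2 and JAK1 on these chains phosphorylate STAT2, which acts with IRF9 to switch on interferon-stimulated genes in the nucleus. In cattle and other ruminants the trophectoderm secretes a type I interferon of its own, interferon tau (IFNT), which acts on the uterus to maintain the corpus luteum, and ISG15 and MX transcripts in endometrium and blood cells are known as signs of early pregnancy. The values below show the transcripts of that response in the embryo itself, beside the ligand it makes.

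The ligand comes first, since the members are read beside it. The probe for IFNT (EMBV3_15805) had normalized log2 intensities of 14.73, 13.35, 14.88 and 14.92 in the control pools of replicates 1 to 4, and of 12.92, 12.00, 14.62 and 13.84 in the BSO pools. The BSO pool was the dimmer one in every replicate, but the ranges of the groups overlapped, since the control pool of replicate 2 was dimmer than the BSO pools of replicates 3 and 4. In the log2 ratios that the authors deposited, BSO over control, IFNT was at -1.90, -1.27, -0.19 and -1.04. The mean was -1.10 ± 0.71 (SD, n = 4), or 2.14-fold lower, with a 95% interval of -1.83 to -0.36 and a limma adjusted p of 0.109 over all tested probes. A second probe, annotated as IFN-tau-c1, was at -1.59, -1.01, -0.45 and -1.28, with a mean of -1.08 ± 0.48 (SD, n = 4) and a limma adjusted p of 0.0741. On both probes replicate 3 was the closest to 0. These probes belong to a multigene family whose members they may not tell apart. Neither passed the threshold of 0.05 in this fit. Both passed when all 8 arrays were fitted with the replicate number as a block, at limma adjusted p of 0.0127 and 0.00463. That fit, here and below, had a correlation within blocks of -0.0076. It thus counted the 8 arrays almost as separate samples, although they held only 4 pools of each group. The IFNT spot reached 86.8% of the brightest spot on an array, where the scale of the scanner can compress a ratio.

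Markers of the trophectoderm, the source of interferon tau, were read beside it. Of 14 such markers tested, 5 were lower and 1 higher at an unadjusted limma p under 0.05, and their median was -0.33. Their summed linear level lay between 77842 and 123423 in the BSO pools and between 124086 and 151549 in the control pools. Such a sum is weighted to the brightest probes, here KRT8, TFAP2C and CLDN4, and no share over the array was computed for it. Of the 14 markers, 11 had a ratio below 0, while CDX2, TFAP2C and ELF5 were above it, at 0.025, 0.15 and 0.20. Markers of the inner cell mass lineages also had more lower than higher members at that p, with 4 lower and 1 higher of 9 for epiblast and 3 lower and 0 higher of 9 for hypoblast. Their medians were -0.081 and -0.047. Of the epiblast markers, 3 of 9 were past 2 times the background limit in both channels of every array. These were DPPA3, at 0.49, and POU5F1 and NANOG, at -0.016 and -0.013. The lower epiblast markers, NODAL, SALL4, FGF4 and SOX2, were all short of that mark. Of the markers of these 3 lineages, 0 passed a limma adjusted p of 0.05. Over all 13675 named genes tested, each at its brightest probe, 14% were lower and 13.8% higher at an unadjusted limma p under 0.05. Summed levels overlapped, at 10266 to 13538 in BSO and 9261 to 12234 in control pools for epiblast, and at 48951 to 63373 and 58375 to 64965 for hypoblast. Their part in the interferon values was not tested. The markers KRT8 and NANOG, of trophectoderm and epiblast, were among the brighter probes, at percentiles 99.8 and 94.4 of all gene probes. Other markers were dim, with CDX2, SOX17 and SALL4 at percentiles 59.5, 33.3 and 26.3. The NANOG ratios also spread widely, at -0.10, 1.74, -0.19 and -1.51. Leukocyte markers, a check for other interferon-responsive cells, had 7 of 12 tested, 0 of them bright enough to pass 2 times the background limit in both channels of every array.

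Most of the response genes gave spots scarcely brighter than the negative controls. The limit used here was the 95th percentile of 153 negative-control spots in the same channel of the same array. Over 16 readings, 8 arrays with 2 channels each, the median intensity was 1.16 times that limit for the brighter ISG15 probe (EMBV3_36652), 1.15 for MX1, 1.11 for MX2 and 1.25 for IFIT2. Here the ubiquitin-like modifier ISG15, the antiviral GTPases MX1 and MX2 and the RNA-binding protein IFIT2 were near the floor of the assay in BSO and in control pools alike. The brightest reading among these 4 probes was 1.51 times the limit. By contrast the median was 2.04 times the limit for EIF2AK2, the double-stranded RNA-activated kinase PKR, 5.66 for STAT2 and 9.59 for IRF7, the transcription factor that drives type I interferon genes in immune cells. For the ligand probe IFNT it was 109. These figures say how far each spot stood above background, and brightness is not compared between genes as a measure of abundance.

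**Figure D1:**
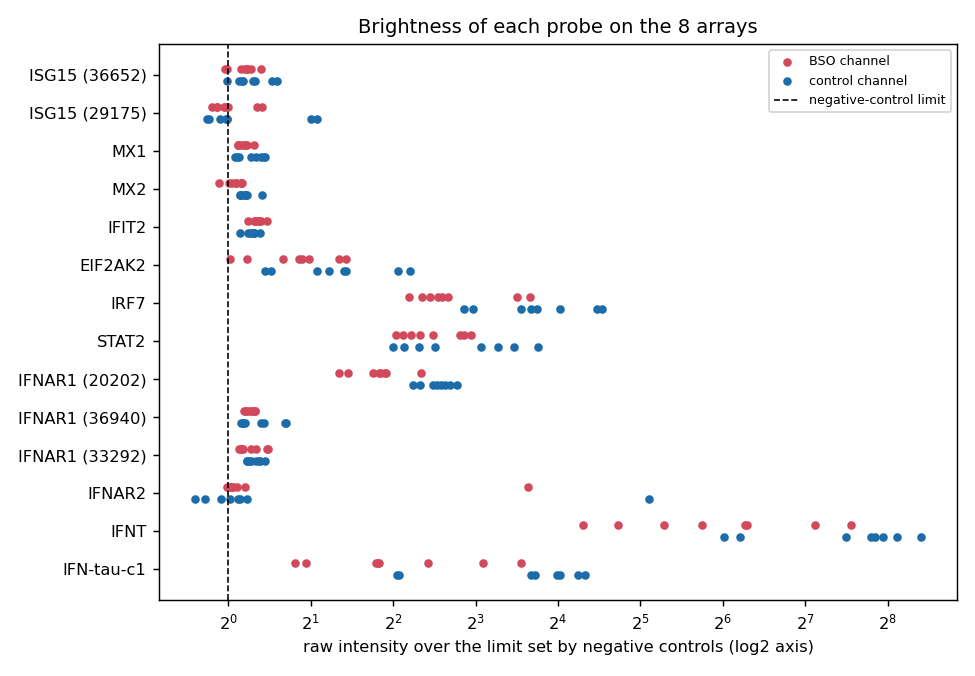
Raw intensity of each probe divided by the negative-control limit of its channel and array, on a log2 axis, with 8 points per channel and probe in the BSO channel (red) and the control channel (blue). ISG15, MX1, MX2, IFIT2 and 2 of the 3 IFNAR1 probes lie within 1.62 times the limit or below it, apart from 2 control readings of the second ISG15 probe near 2 times the limit, and 1 array alone lifts both IFNAR2 channels.

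The second ISG15 probe (EMBV3_29175) was above the limit on 2 of 8 arrays in either channel, so no ratio is given for it. Those were the 2 arrays of replicate 3. There the control channel read 2.12 and 2.01 times the limit and the BSO channel 1.33 and 1.27 times. On the other 6 arrays it read 0.837 to 0.996 times the limit. So the only pools in which this ISG15 probe stood clear of background were those of replicate 3, and it did so on both arrays. The first ISG15 probe read at most 1.51 times the limit anywhere.

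Of the 11 tested probes, 0 were called by limma at an adjusted p of 0.05, beside 220 of all 36995 tested probes, or 0.595%. With the replicate number as a block on 8 arrays, MX2 and IRF7 passed, beside 11.6% of all tested probes, and with ratios computed from the scanner values 0 members and 0 of all tested probes passed. At an unadjusted limma p under 0.05 there were 3 lower probes (MX2, EIF2AK2 and IRF7) and 1 higher (IFIT2). Over all tested probes 13.4% were lower and 12.6% higher at that p, so 4 of 11 stood beside a background of 26%. The sign was the same in all 4 replicates for MX1, MX2 and IRF7, all lower, and for IFIT2, higher. That was 4 of 11 probes beside 38.4% of all tested probes, of which 17% were lower and 21.3% higher. The median of the 11 ratios was -0.040, beside 0.019 for all tested probes. Dim probes gave small ratios throughout the array. The median size of a log2 ratio was 0.078 over tested probes short of 2 times the limit in both channels of every array, and 0.21 over the 8878 probes past that mark. Of the members, IRF7, STAT2 and the brightest IFNAR1 probe were past it.

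**Figure D2:**
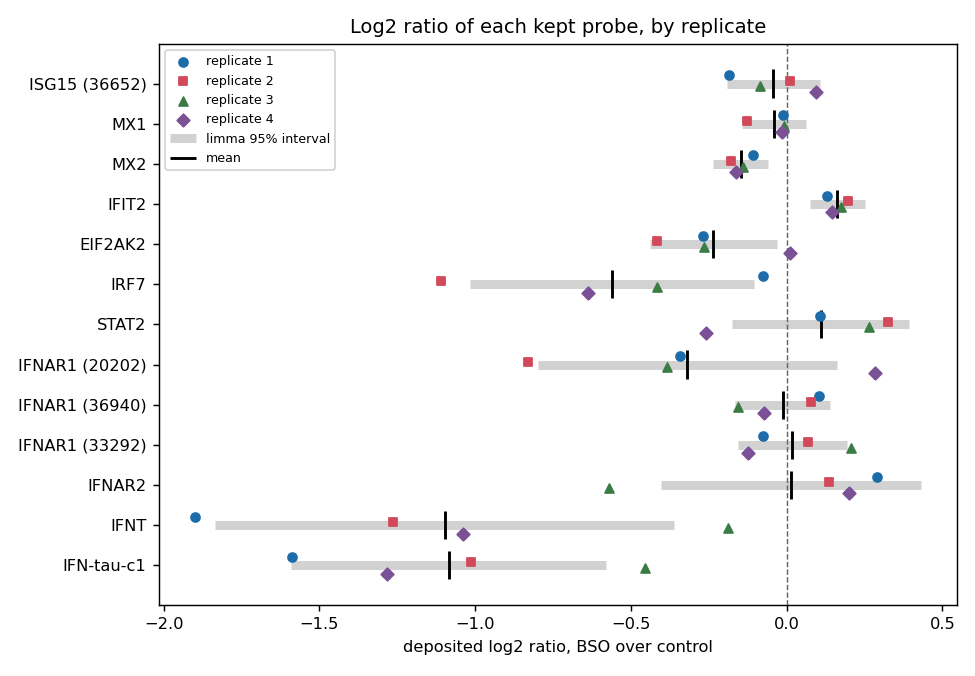
Deposited log2 ratio of BSO over control for the 11 tested probes and the 2 interferon tau probes, with 1 symbol per replicate, the mean as a black tick and the limma 95% interval in grey. The interferon tau probes have means of -1.10 and -1.08, IRF7 has -0.56, and the ISG15 and MX1 intervals span 0 and stay within 0.20 of it.

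Among the receptor chains, the brightest IFNAR1 probe (EMBV3_20202) had normalized log2 intensities of 9.57, 9.78, 9.42 and 9.39 in the control pools and of 9.17, 8.86, 9.02 and 9.64 in the BSO pools. The BSO pool was dimmer in replicates 1, 2 and 3 and brighter in replicate 4, and the groups overlapped. Its log2 ratios were -0.34, -0.83, -0.39 and 0.28, with a mean of -0.32 ± 0.46 (SD, n = 4), a 95% interval of -0.80 to 0.16 and a limma adjusted p of 0.328. The mean was -0.15 without replicate 2 and -0.52 without replicate 4, and -0.052 on slide 25. The 2 other IFNAR1 probes (EMBV3_36940 and EMBV3_33292) had means of -0.012 ± 0.12 and 0.018 ± 0.15 (SD, n = 4). They read a median of 1.21 times the limit each, so the 3 probes of this gene differ in brightness as well as in ratio.

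The IFNAR2 probe sat at the limit on 7 arrays, with readings of 0.759 to 1.17 times it. On the remaining array, that of replicate 3 with BSO in Cy5, the same probe read 12.5 times the limit in the BSO channel and 34.5 times in the control channel. The other array of replicate 3 read 1.03 and 1.11 times the limit. The log2 ratios of the 4 replicates were 0.29, 0.14, -0.57 and 0.20, and that of the bright spot alone was -1.06. The mean was 0.014 ± 0.40 (SD, n = 4), with a limma adjusted p of 0.963. With replicate 3 taken from its other array alone, an alternative chosen after seeing the data, the mean was 0.14 and the limma adjusted p 0.345. The IFNAR2 value for replicate 3 thus rested on 1 spot that the matched array did not repeat, unlike the second ISG15 probe.

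STAT2, the signalling factor that works with IRF9, was measured well above background. Its control pools were at 9.44, 9.45, 9.90 and 10.51 and its BSO pools at 9.52, 9.72, 10.12 and 10.24. The groups overlapped, and replicate 4 alone had the lower value in BSO. The log2 ratios were 0.11, 0.33, 0.26 and -0.26, with a mean of 0.11 ± 0.26 (SD, n = 4) and a limma adjusted p of 0.549. The mean was 0.037 without replicate 2, 0.057 without replicate 3 and 0.23 without replicate 4, and 0.0028 on slide 25. The 95% interval of the fold, BSO over control, was 0.886 to 1.31, which does not reach the mean fold of 0.467 for IFNT.

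IRF7 had the lowest mean of the members. Its control pools were at 10.01, 11.04, 11.26 and 10.70 and its BSO pools at 9.91, 9.84, 10.86 and 10.08. The BSO pool was dimmer in all 4 replicates, and the groups overlapped. The log2 ratios were -0.075, -1.11, -0.42 and -0.64, with a mean of -0.56 ± 0.43 (SD, n = 4), or 1.47-fold lower, and a 95% interval of -1.02 to -0.10. The ratio was below 0 on 8 of 8 arrays. The limma adjusted p was 0.144, and it was 0.0274 with all 8 arrays fitted and the replicate number as a block. Replicate 1, with the lowest IFNT ratio, had the IRF7 ratio closest to 0. IRF7 was lowest in replicate 2, and without that replicate its mean was -0.38.

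**Figure D3:**
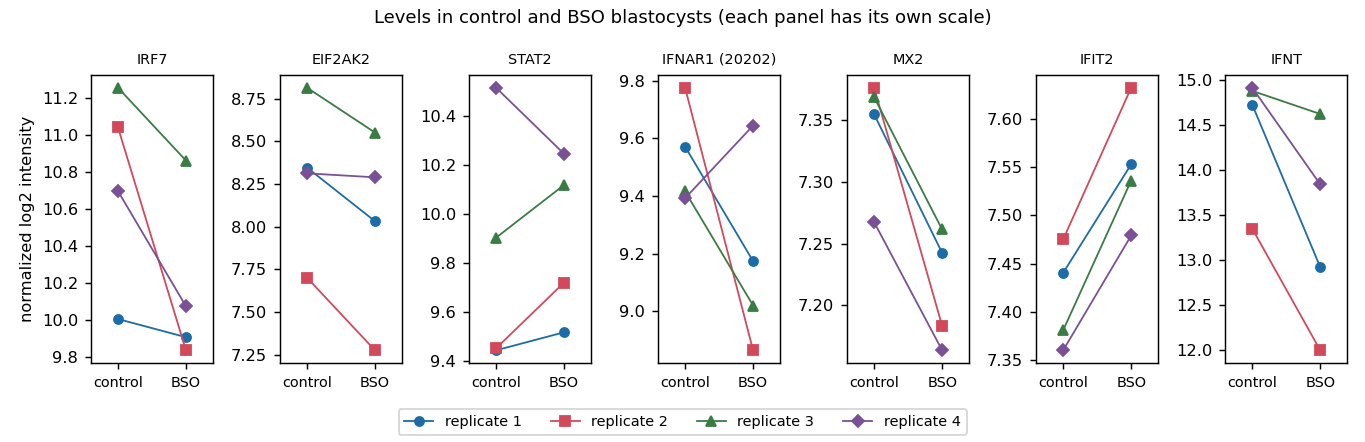
Normalized log2 intensity in the control and BSO pools of each replicate for 6 member probes and IFNT, each panel with its own scale and a line joining the pools of a replicate. IRF7, MX2 and IFNT are lower in BSO in 4 of 4 replicates, IFIT2 is higher in 4 of 4, and EIF2AK2, STAT2 and IFNAR1 have a replicate near 0 or of the other sign.

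EIF2AK2, which halts translation by phosphorylating the initiation factor eIF2 when it meets double-stranded RNA, was at 8.35, 7.70, 8.81 and 8.31 in control pools and at 8.03, 7.28, 8.55 and 8.29 in BSO pools. Pools of replicate 2 were the dimmest of both groups, so that the spread between replicates was larger than the gap within any of them. The log2 ratios were -0.27, -0.42, -0.27 and 0.011, with a mean of -0.24 ± 0.18 (SD, n = 4) and a limma adjusted p of 0.156. Cy5-labelled BSO gave a mean of -0.036 and Cy3-labelled BSO a mean of -0.44, a dye difference with a limma adjusted p of 0.00197.

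MX2 and IFIT2 had the most even ratios of the members, on spots close to the limit. MX2 was at 7.35, 7.38, 7.37 and 7.27 in control pools and at 7.24, 7.18, 7.26 and 7.16 in BSO pools, which did not overlap. IFIT2 was at 7.44, 7.48, 7.38 and 7.36 in control pools and at 7.55, 7.63, 7.54 and 7.48 in BSO pools. Its groups did not overlap either, although the lowest BSO pool and the highest control pool were both at 7.48 to 2 decimals. Such separation was found for 6.77% of all tested probes. The mean log2 ratio of MX2 was -0.15 ± 0.031 and that of IFIT2 was 0.16 ± 0.030 (SD, n = 4), with limma adjusted p of 0.0955 and 0.0849. With the replicate number as a block on 8 arrays, MX2 passed at a limma adjusted p of 0.0444 and IFIT2 did not, at 0.0566, and with a dye term added to that fit, a choice made after seeing the data, MX2 was at 0.052. These ratios amount to 1.11-fold lower and 1.12-fold higher, in opposite directions, for 2 genes that type I interferon induces together.

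The ISG15 and MX1 probes had the ratios closest to 0 among the interferon-stimulated genes. ISG15 had log2 ratios of -0.19, 0.011, -0.087 and 0.093, with a mean of -0.043 ± 0.12 (SD, n = 4). The 95% interval of its fold was 0.875 to 1.08, and the limma adjusted p was 0.661. MX1 had -0.011, -0.13, -0.0084 and -0.016, with a mean of -0.040 ± 0.058 (SD, n = 4), an interval of the fold from 0.906 to 1.04 and a limma adjusted p of 0.538. Its mean was -0.012 without replicate 2. Because both probes read so near the limit, these intervals describe the ratio of the spots, and a difference in a transcript below the floor was not detectable.

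Dye orientation mattered for most of these probes. Of 11, 8 had a dye term at a limma adjusted p under 0.05, as did 47.6% of all tested probes. For MX1 the mean was 0.13 with BSO in Cy5 and -0.21 with BSO in Cy3, and for ISG15 it was -0.19 and 0.11, so each sign depended on the dye. The average over orientations cancels this term. The brightest IFNAR1 probe, the dimmer IFNAR1 probe EMBV3_36940 and IRF7 had no dye term at that threshold, with IRF7 at -0.66 and -0.46. No member differed between slide sets at an adjusted p of 0.05 with limma, nor did any of the tested probes. At an unadjusted p under 0.05 that was 0 of 11 members and 7.63% of all tested probes.

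**Figure D4:**
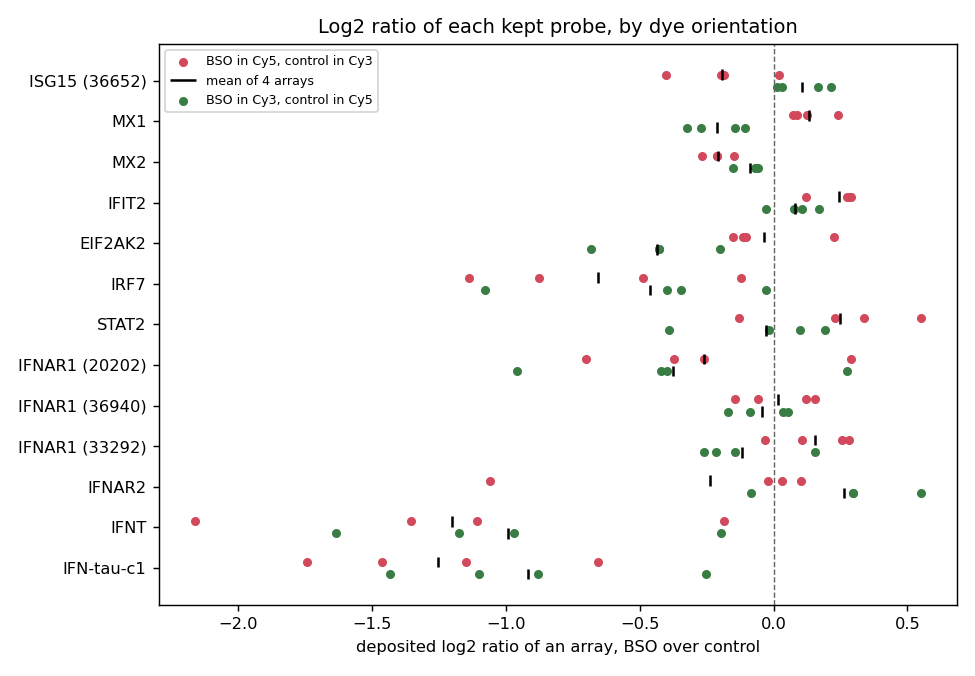
Deposited log2 ratio of BSO over control on each of the 8 arrays, split into 4 arrays with BSO in Cy5 (red) and 4 with BSO in Cy3 (green), with the mean of each as a black tick. For ISG15 and MX1 the means of the orientations lie on opposite sides of 0, while IRF7 and the interferon tau probes lie below 0 in both.

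The difference between each response gene and its ligand was tested directly, as the member's ratio minus that of IFNT within each replicate, using the brightest probe of a gene. The mean difference ranged from 0.54 ± 0.90 for IRF7 to 1.26 ± 0.69 for IFIT2 (SD, n = 4). STAT2 was at 1.21 ± 0.71, MX1 and ISG15 at 1.06 ± 0.70 and 1.06 ± 0.68, MX2 at 0.95 ± 0.72 and IFNAR2 at 1.11 ± 1.08. ISG15, MX1, MX2, IFIT2 and STAT2 lay above IFNT in 4 of 4 replicates. So did 85.5% of all tested probes, and 74.5% of those past 2 times the limit in both channels of every array, so the share among the 9 genes was not above that of the array. The spots of ISG15, MX1, MX2 and IFIT2 were dim, and dim probes had small ratios across the array. EIF2AK2, IRF7, IFNAR1 and IFNAR2 lay above IFNT in 3 of 4 replicates, the exception being replicate 3 each time. For the first 5 genes the exact two-sided sign-flip permutation p was 0.125, the smallest that 4 replicates allow, and 0.225 after adjustment over the 9 genes. The test therefore could not reach 0.05. Without replicate 3, all 9 genes lay above IFNT in the remaining replicates, where IFNT was at -1.90, -1.27 and -1.04. The share of all tested probes doing so was not computed, so nothing particular to these genes is read from it.

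Of 22 interferon genes listed, 9 had a probe and 6 were tested, with 3 lower at an unadjusted limma p under 0.05, 0 higher, and a median of -0.40. Besides the interferon tau probes, the third was IFNW1, an interferon omega of the same chromosomal family, at -1.13, -0.41, -0.41 and -0.73, with a mean of -0.67 ± 0.14 (limma SE, n = 4) and a limma adjusted p of 0.0835. Sequences in this family are alike enough that the IFNW1 probe may also catch IFNT transcripts. Among all 13675 named genes tested, each at its brightest probe, 14% were lower and 13.8% higher at that p, with a median of 0.017. Those shares are the background for every list of genes below.

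Further along the pathway, the signal chain had 19 genes tested, with 2 lower and 3 higher at an unadjusted limma p under 0.05 and a median of -0.051. The receptor kinase JAK1 was at -0.20 ± 0.075 and its partner TYK2 at 0.14 ± 0.053 (limma SE, n = 4), with limma adjusted p of 0.181 and 0.186. With BSO in Cy5 and in Cy3, JAK1 was at -0.55 and 0.14 and TYK2 at 0.33 and -0.052, so each sign depended on the dye. JAK1 was also slightly above 0 in replicate 4, at 0.019. JAK2, which serves cytokine receptors other than the type I interferon receptor, was at 0.42 ± 0.11 with a limma adjusted p of 0.109. The phosphatase PTPN6 was at 0.11, on a dim probe at brightness percentile 48.7. The other lower gene was IRF5, a relative of IRF7 named after its values were seen, at -0.42, -0.86, 0.034 and -0.69, with a mean of -0.49 ± 0.16 (limma SE, n = 4) and a limma adjusted p of 0.153. The interferon regulatory factors IRF1, IRF3 and IRF9 were at -0.12, -0.057 and -0.083. Enzymes that attach ISG15 to proteins or remove it had 6 genes tested, with 0 called in either direction at that p. Their median was -0.027, and USP18, which cleaves ISG15 off and damps the receptor, was at -0.020. The USP18 and IRF9 probes were at brightness percentiles 37.9 and 25.3, below the tested ISG15 probe at 46.0. A difference in a transcript below the floor was not detectable there either. The 3 other interferon receptor genes tested had 0 called and a median of -0.18.

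Interferon-stimulated genes beyond the members went both ways. Of 50 tested, 6 were lower and 10 higher at an unadjusted limma p under 0.05, or 12% and 20%, and the median was 0.052. Only 14 of the 50 were past 2 times the limit in both channels of all arrays. Some genes changed sign widely between replicates, and 2 of them are given here, named after their values were seen. IFIT5, past that mark, was at -1.87, 2.51, 0.29 and 2.00, with a mean of 0.73 ± 0.79 (limma SE, n = 4). IFITM2, short of it, was at -1.82, 1.58, 0.18 and 2.55, with a mean of 0.62 ± 0.75 (limma SE, n = 4). Their limma adjusted p were 0.576 and 0.622. MOV10, an RNA helicase with antiviral activity, was the only gene of these lists to pass over all probes. It was at -1.11, -1.05, -1.22 and -0.69, with a mean of -1.02 ± 0.097 (limma SE, n = 4), or 2.02-fold lower, and a limma adjusted p of 0.0484. That call was lost without any 1 of the replicates, with limma adjusted p of 0.0914 to 0.190, and with ratios computed from the scanner values, at 0.0567. The ratio itself stayed at -1.13 to -0.95 without 1 replicate and was -1.04 with scanner values, and with the replicate block on 8 arrays the limma adjusted p was 0.0021. Next were APOL3 at -0.71 and WARS1, the cytosolic tryptophanyl-tRNA synthetase, at -0.43, and PARP10 at -0.32. APOL3 was at -1.60 with BSO in Cy5 and at 0.17 with BSO in Cy3, and WARS1 was at -0.81 and -0.050.

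Above 0 stood DTX3L and PARP9, whose products form a complex of a ubiquitin ligase and an ADP-ribosyltransferase. DTX3L was at 0.25, 0.98, 0.87 and 0.74, with a mean of 0.71 ± 0.13 (limma SE, n = 4), or 1.64-fold higher, and a limma adjusted p of 0.076. PARP9 was at 0.025, 0.91, 0.27 and 0.64, with a mean of 0.46 ± 0.16 and a limma adjusted p of 0.165. For both, replicate 2 was the highest. IFI35 was at 0.27 ± 0.044 and EPSTI1 at 0.21 ± 0.051 (limma SE, n = 4), with limma adjusted p of 0.0683 and 0.0991. PARP9 was past 2 times the limit in both channels of every array, while DTX3L, IFI35 and EPSTI1 were not.

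**Figure D5:**
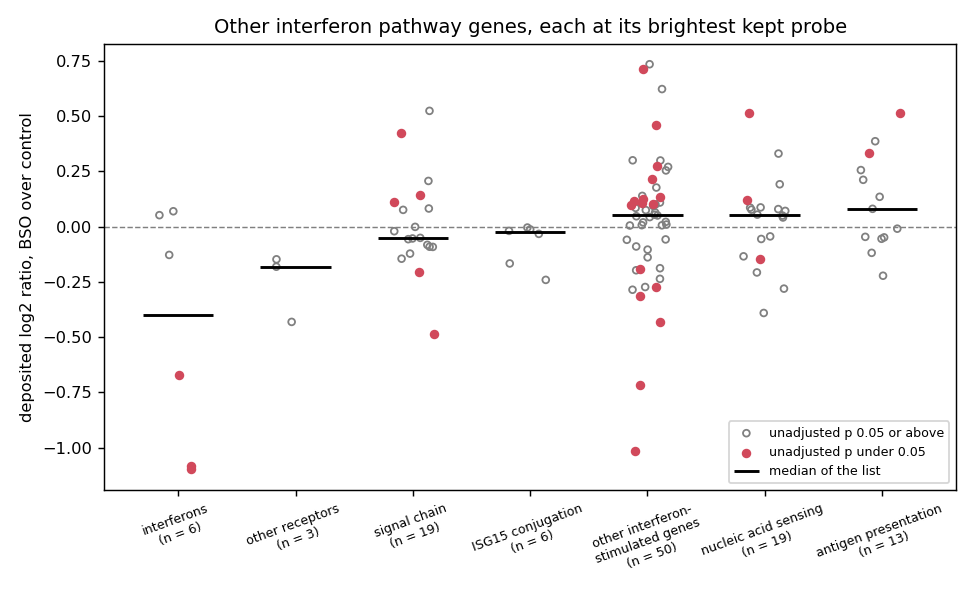
Deposited log2 ratio of BSO over control for the other genes of the pathway, each at its brightest tested probe, grouped by role, with filled points at an unadjusted limma p under 0.05 and the median of each group as a black line. The interferons reach -1.10, while the other interferon-stimulated genes spread from -1.02 to 0.73 around a median of 0.052.

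Sensors of viral nucleic acid and their adaptors had 19 genes tested, with 1 lower and 2 higher at an unadjusted limma p under 0.05 and a median of 0.054. TANK, a scaffold of the kinase TBK1, was at 0.52 ± 0.15 (limma SE, n = 4), TLR9 at 0.12 and the adaptor MYD88 at -0.15. Their limma adjusted p were 0.136, 0.152 and 0.192. Of the 19 genes, 5 were past 2 times the limit in both channels of every array. TANK was among them, and TLR9 and MYD88 were not. Antigen presentation, which interferon raises in many tissues, had 13 genes tested, with 0 lower and 2 higher and a median of 0.080. Its B2M, the invariant light chain of class I molecules, was at 0.31, 1.15, 0.29 and 0.30, with a mean of 0.51 ± 0.17 (limma SE, n = 4) and a limma adjusted p of 0.159. The other was TAP2, a subunit of the peptide transporter, likewise named after its values were seen, at 0.33 ± 0.11 (limma SE, n = 4) with a limma adjusted p of 0.166.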

How the data were processed

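Per the file headers, the deposited scanner output held raw mean intensity values of each spot and its local background at 532 nm (Cy3) and 635 nm (Cy5). A second deposited table gave 1 log2 value per probe and array. The submitters' processing notes named limma, and neither its version nor the background correction and normalization are given in the sources used here. They ran as log2 of BSO over control in a comparison with ratios computed from the scanner intensities, to which they correlated at 0.889 to 0.989, with array medians of 0.0011 to 0.013.

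Here the deposited ratios were averaged over arrays of opposite dye at the same order within slides and tested against 0 with limma 3.58.1 in R 4.3.3, Benjamini-Hochberg adjusted over 36995 probes. Labels do not pair the arrays. Deviations from each orientation's mean correlated at 0.726 to 0.853 in matched arrays and at most at -0.027 in others, which the fixed sum within an orientation partly builds in. A probe was tested if brighter than the 95th percentile of negative controls on at least 4 of 8 arrays in either group. Levels came from scanner values after normexp (offset 50), loess and Aquantile normalization, and each replicate level holds both dyes. The number of arrays limits precision. The fit was tested on simulated data.

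Symbols came from the platform annotation, which names 21790 of 43794 probes. Pathway genes were updated through RefSeq symbols of assembly ARS-UCD2.0. No build is named for the probes, so no coordinates are given. From each pathway list the text names genes at unadjusted p under 0.05 with 1 sign in all 4 replicates, at most 4 per direction by size, plus 8 fixed signalling genes where tested. Genes named after their values were seen are marked as such. IRF2 gave no value. Members, lists and rules were chosen with earlier results of these data known.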

Additional observations from a re-analysis of the deposited data

Results flagged for a closer look

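In 2 of 34 named probes, a single replicate stood far from the other 3 by Dixon's test at 95%, which chance gives in about 1 group in 20. MX1 was at -0.13 in replicate 2 and between -0.016 and -0.0084 in the others, at a brightness near the background limit. B2M was at 1.15 in replicate 2 and between 0.29 and 0.31 in the others, on a bright probe.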

How the results depend on the processing

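Among all tested probes, 220 passed an adjusted p of 0.05. That count was 0 with scanner values after normexp and loess, 0 after median centring and 468 without background correction. It was 0 in replicates 1 and 2 only, 0 in replicates 3 and 4 only and 0 without any 1 replicate. It was 4309 with the replicate block, 4234 with 8 arrays as separate samples and 4463 with the replicate block and a dye term. The correlation within blocks was -0.0076 without and 0.568 with the dye term. Without that term the block fit thus treated the 8 arrays almost as separate samples. Member probes at an unadjusted p under 0.05 numbered 4, but 1 with the stricter filter, which kept 3, 2 in replicates 1 and 2 and 1 in replicates 3 and 4. Without 1 replicate they numbered 3 to 5. Members above IFNT in every replicate numbered 5, but 1 with the stricter filter, 9 in replicates 1 and 2, and 5 to 9 without 1 replicate. For these subsets of replicates no share over all tested probes was computed. The causes were not tested beyond the fewer probes or replicates. With the mean over the probes of a gene, some pathway counts at an unadjusted limma p under 0.05 moved. Lower genes went from 2 to 1 in the signal chain, from 1 to 0 among sensors and from 0 to 1 in antigen presentation. ISG15, the 2 dimmer IFNAR1 probes, IFNAR2, USP18, IRF9 and IRF3 turned sign. ISG15 was at -0.088 to 0.0055 without 1 replicate and 0.0030 in replicates 3 and 4. IFNAR1 probe EMBV3_36940 was at 0.032 with median centring, 0.090 in replicates 1 and 2, and -0.051 to 0.036 without 1 replicate. EMBV3_33292 was at -0.00095 with scanner values, -0.0039 in replicates 1 and 2, and -0.044 to 0.066 without 1 replicate. IFNAR2 was at -0.057 without background correction, -0.044 with median centring, -0.19 in replicates 3 and 4, and -0.078 to 0.21 without 1 replicate. In replicates 1 and 2 IRF9 was at 0.026 and IRF3 at 0.041. USP18 was at -0.041 to 0.018 without 1 replicate or with replicate 3 from 1 array. MX1, MX2, IFIT2, EIF2AK2, IRF7, STAT2, the brightest IFNAR1 probe and both interferon tau probes kept their sign in every alternative run. Signal over background limits ISG15, MX1, MX2, IFIT2 and IFNAR2. It also limits dim pathway genes such as USP18, IRF9, PTPN6 and TLR9.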
